A study of Homo sapiens with 6 samples.

Results

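The genes described here are the nuclear genes for the subunits of respiratory complexes I, II, III and IV. They were taken by symbol from the count table, as every gene whose name begins with NDUFA, NDUFB, NDUFC, NDUFS, NDUFV, UQCR, COX4I, COX5, COX6, COX7 or COX8, together with SDHA, SDHB, SDHC, SDHD and CYC1. The 8 NDUFAF assembly factors and 2 pseudogenes that the same letters match were left out. This gave 74 of the 27470 genes in the table, of which 70 encode subunits, 3 are antisense transcripts and 1 is a readthrough transcript. The study used 22Rv1 cells, a line from a human castration-resistant prostate carcinoma, in which ABHD5, a co-activator of the lipase ATGL, was placed behind a doxycycline (Dox) inducible promoter. Both groups carry the same pInducer20-ABHD5 lentiviral transgene in a pool selected with G418. The Control group (3 libraries) was kept without Dox and the OE group (3 libraries) was grown with it, for 48 h. The parent line with Dox was not analysed here, so that Dox itself and ABHD5 cannot be told apart.

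The respiratory chain sits in the inner mitochondrial membrane and passes electrons from NADH and succinate to oxygen. Complex I takes them from NADH and complex II from succinate, both hand them to ubiquinone, complex III moves them on to cytochrome c, and complex IV reduces oxygen. Complexes I, III and IV pump protons, and the gradient they build drives ATP synthase. Mitochondrial DNA encodes part of complexes I, III and IV, and the count table lists 0 genes with a mitochondrial DNA symbol, so only the nuclear genes were measured. The 70 subunit genes are spread over 21 chromosomes. They comprise 37 genes of complex I, 4 of complex II, 10 of complex III, 18 of complex IV and COX7A2L, a factor that joins complexes III and IV into supercomplexes.

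Promoters of these genes are known for binding sites of NRF1, of the ETS factor GABP and of YY1. Among the 70 subunit genes, 59 had a promoter in the RefSeq table (build GRCh38.p14), from 250 bases before to 50 bases after the start. The letters searched, on both strands, were GCGCATGC for NRF1, CCGGAAG for ETS factors, AAGATGGCG for YY1 and CCAAT for the CCAAT box. The last 3 letters of the ETS string can be the first 3 of the YY1 string, and the NRF1 string can overlap its own reverse complement. Of the 54 subunit genes that were also tested for expression, 16.7% held the NRF1 string, against 5.82% of the promoters of 9833 genes tested and 3.27% of all 27305 promoters in the table. The ETS string stood in 27.8%, against 20.4% and 10.7%. The YY1 string stood in 13%, against 4.19% and 1.85%, and the CCAAT box in 29.6%, against 37.6% and 35.7%. The sequences below are the 180 bases before the RefSeq start of 5 genes that were lower in OE and hold an NRF1 or ETS string, and of UQCRFS1, which was higher and holds none of the 4 strings. They are printed 5′ to 3′ on the strand of the gene, with the NRF1 and ETS strings in capitals.
NDUFS6 (chr5:1801227-1801406, plus strand): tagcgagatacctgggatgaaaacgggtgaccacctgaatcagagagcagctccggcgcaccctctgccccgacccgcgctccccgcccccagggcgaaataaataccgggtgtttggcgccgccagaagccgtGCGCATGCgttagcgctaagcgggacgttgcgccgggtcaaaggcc
NDUFA6 (chr22:42090773-42090952, minus strand): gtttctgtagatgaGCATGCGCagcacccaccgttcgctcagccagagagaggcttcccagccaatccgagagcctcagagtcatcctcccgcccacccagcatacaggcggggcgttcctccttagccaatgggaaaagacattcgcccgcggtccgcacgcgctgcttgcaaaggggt
NDUFS3 (chr11:47578894-47579073, plus strand): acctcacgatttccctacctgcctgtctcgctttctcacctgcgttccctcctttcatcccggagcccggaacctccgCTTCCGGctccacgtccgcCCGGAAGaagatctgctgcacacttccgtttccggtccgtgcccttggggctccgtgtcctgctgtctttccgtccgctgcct
UQCRQ (chr5:132866462-132866641, plus strand): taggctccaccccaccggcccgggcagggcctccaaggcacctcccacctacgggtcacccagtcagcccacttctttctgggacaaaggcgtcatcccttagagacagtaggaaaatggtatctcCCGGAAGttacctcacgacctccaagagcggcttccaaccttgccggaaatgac
COX8A (chr11:63974440-63974619, plus strand): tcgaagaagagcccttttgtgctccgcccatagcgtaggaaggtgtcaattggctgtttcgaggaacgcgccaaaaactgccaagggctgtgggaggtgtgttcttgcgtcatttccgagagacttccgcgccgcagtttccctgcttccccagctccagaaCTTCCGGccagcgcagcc
UQCRFS1 (chr19:29213152-29213331, minus strand): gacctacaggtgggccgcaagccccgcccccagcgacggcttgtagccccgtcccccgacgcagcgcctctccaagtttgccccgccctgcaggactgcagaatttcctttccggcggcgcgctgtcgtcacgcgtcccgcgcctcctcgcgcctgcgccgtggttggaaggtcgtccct

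In NDUFS6 the NRF1 string starts 46 bases before the start, and in NDUFA6 its reverse complement starts 166 bases before it. NDUFS3 holds the ETS string on both strands, starting 102 and 83 bases before the start, and NDUFA6 also holds a YY1 string past the start, outside the stretch shown. Of the 10 subunit genes that were lower in OE, 9 had a promoter, and 2 of these held the NRF1 string, 3 the ETS string and 1 the YY1 string. Of the 44 that passed no threshold, 15.9%, 27.3% and 13.6% held them. A match describes the letters of the window, not binding in these cells.

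The library kit starts cDNA synthesis from poly(A), and each transcript is read near its 3′ end. Reads counted on genes ranged from 3394672 to 7271771 per library, and replicate 2 was the shallowest and replicate 3 the deepest in both groups. The share of listed reads outside any gene was 32.5% to 34.6% in Control and 35.6% to 39.5% in OE. Counting noise alone would give replicates a chi-square near its degrees of freedom, and every replicate pair was above that, by 4.07 to 11.3 times. The replicates thus differed by more than counting noise, from a source that was not tested. Each library was treated as 1 sample. ABHD5, the induced gene, had 63.5, 58.0 and 62.8 CPM in Control and 125.9, 130.8 and 91.7 CPM in OE, a log2 fold change of 0.91 (SE 0.15, adjusted p = 1.98e-04, edgeR). CPM are counts per 1e6 reads of a library after TMM scaling. Of 9 prostate luminal markers, 5 were lower in OE at an adjusted p under 0.05 (edgeR) and 0 were higher. Their summed level was 1548 to 1646 CPM in Control and 984.6 to 1092 CPM in OE. The mean level of HOXB13, which did not pass the threshold, was 164.6 CPM in Control and 156.7 in OE. KRT18 and EPCAM were among those lower in OE, at 248.1 and 166.9 CPM and at 146.1 and 101.9 CPM. The basal markers KRT5 and KRT14, the endothelial markers PECAM1, VWF and CDH5, the neuroendocrine marker CHGA and the T cell marker CD3E were at 0 in every library. Summed levels in Control and OE were 0 to 0.261 and 0 CPM for 3 basal markers, 111.3 to 146.1 and 115.5 to 147.0 for 4 neuroendocrine markers, 4.96 to 9.95 and 7.24 to 11.4 for 6 fibroblast and smooth muscle markers, and 0.784 to 1.86 and 0.657 to 1.39 for 4 leukocyte markers. Within these sums, 1 of 2 neuroendocrine markers tested was called higher in OE and 0 lower. The same held for 1 of 2 fibroblast and smooth muscle markers tested. The part of the luminal markers in the results below was not tested.

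The comparison of OE with Control asks which subunit genes differed once ABHD5 was induced. Most differed little, and those past the threshold went both ways. Of the 63 subunit genes that passed the filter on low counts, 12 differed at an adjusted p under 0.05 (edgeR's quasi-likelihood test), which is 19% of them, where 25.5% of all 12233 genes tested did. Lower in OE were 10 genes, or 15.9%, against 13.7% of all genes tested. Higher in OE were 2 genes, or 3.17%, against 11.9% of all genes. So, after TMM scaling, the share of lower calls was near that of all genes, and the share of higher calls was below it. In a bulk sample, fewer cells of a type and less RNA per cell cannot be told apart.

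The log2 fold changes of OE against Control had a median of -0.10, with quartiles at -0.27 and 0.09, where the median of all genes tested was 0.02. A negative value was seen in 40 of the 63 genes (63.5%), against 48.5% of all genes. With library totals alone as the scale, which moved the median of all genes to 0.14, the members' median was 0.02. Of the 63 genes, 29 were then negative and 34 positive. Called lower were 5 and higher 3, where 1136 and 2179 of all 12233 genes tested were. With a cyclic loess normalization, 31 were negative and 32 positive. Called lower were 3 and higher 4, where 1543 and 1456 of all 12233 genes tested were. The largest fall was 1.68-fold and the largest rise 1.5-fold, so that 0 of the 63 genes reached a 2-fold change, where 8.06% of all genes tested did, called or not. For all 63, the 95% interval of the log2 fold change lay between -1 and 1, as it did for 72.1% of all genes tested. The median standard error was 0.13 among the 63 and 0.18 among all genes tested, which were not matched by read number. All OE libraries lay below all Control libraries in 20 of the 63 genes and above them in 4. Among all genes tested this was so for 20.5% and 19%.

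**Figure D1:**
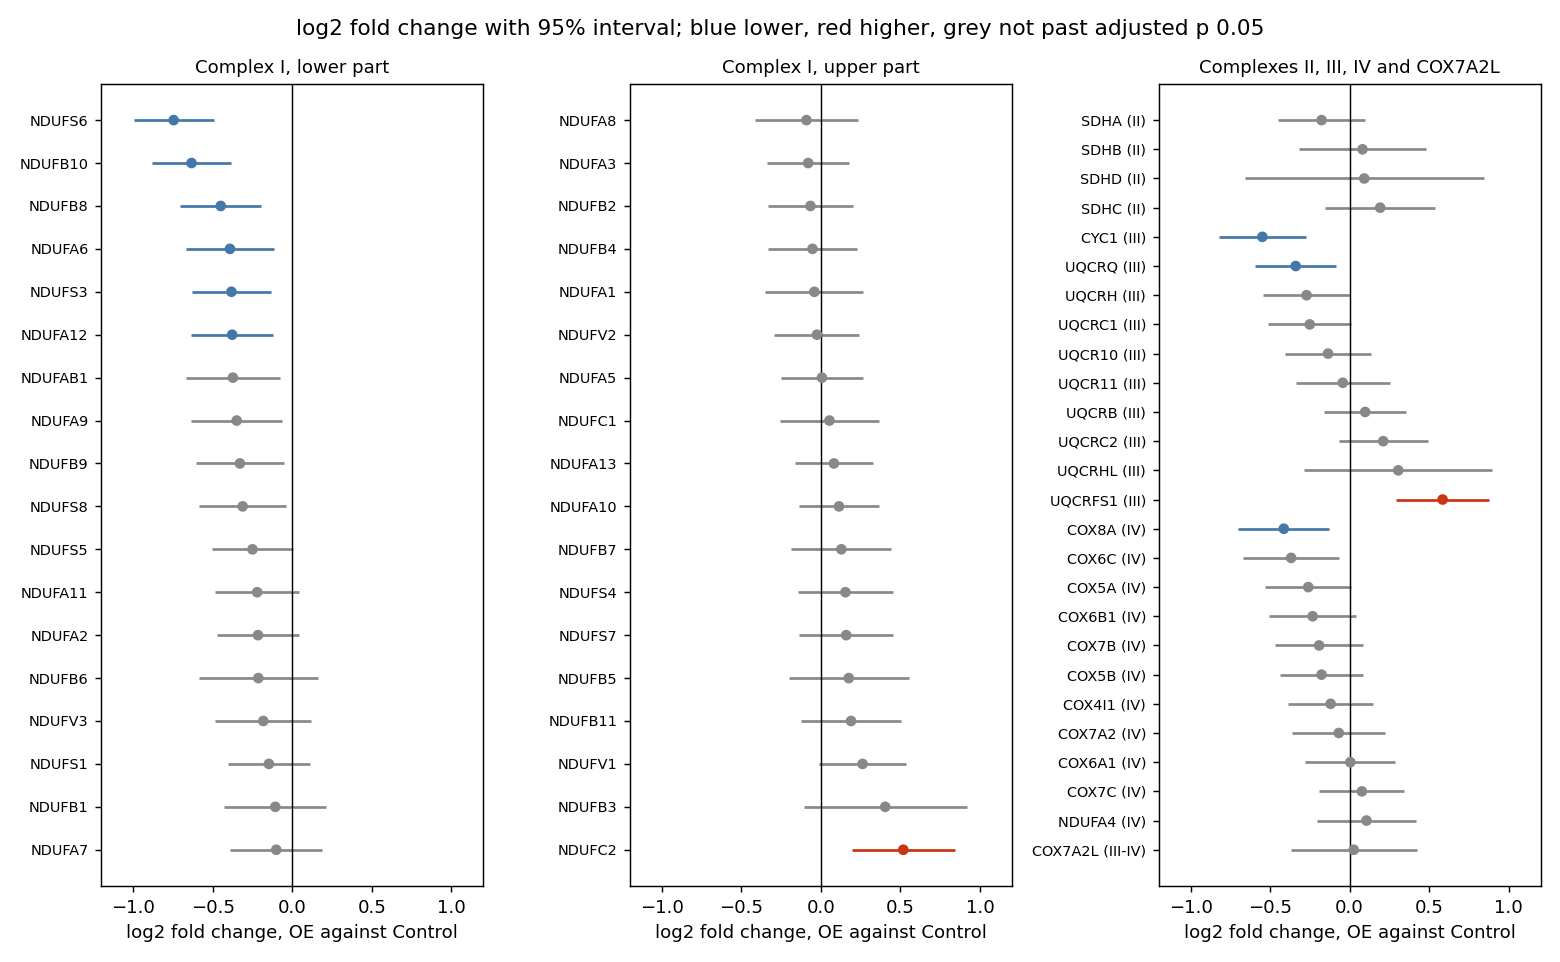
Log2 fold change (x axis, OE against Control) of the subunit genes tested and reported, with the 95% interval, for complex I in order of fold change in the left and middle panels and for complexes II to IV and COX7A2L in the right panel. Blue marks genes lower in OE and red the 2 higher at an adjusted p under 0.05 after TMM scaling, and the 51 grey genes passed no threshold; with library totals as the scale, 3 were higher.

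Complex I makes up 37 of the 63 subunit genes tested. Of these, 7 (18.9%, against 13.7% of all genes tested) were lower in OE and 1 (2.7%, against 11.9%) was higher, with a median log2 fold change of -0.10. The counts were 4 lower and 2 higher with library totals as the scale, and 2 lower and 2 higher with cyclic loess. Its core, which carries out electron transfer from NADH to ubiquinone, has 7 nuclear genes. NDUFS3, a core subunit of the matrix arm, had 176.1, 175.2 and 184.3 CPM in Control and 142.2, 133.9 and 135.0 CPM in OE, a log2 fold change of -0.38 (SE 0.12, adjusted p = 0.0235, edgeR). Every OE library was below every Control library. Among core genes that did not pass, NDUFS8, an iron-sulfur subunit, had a log2 fold change of -0.31, NDUFS1 of -0.15, NDUFV2 of -0.03, NDUFS7 of 0.16 and NDUFV1, which binds NADH and flavin, of 0.26. NDUFV2 turned positive with upper-quartile or library total scaling, at 0.03 and 0.10. NDUFV1 passed the threshold as higher, at 0.38, both with library totals as the scale and with cyclic loess.

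The accessory subunits of the matrix arm surround this core. Of 9, 3 were lower (33.3%, against 13.7% of all genes tested) and 0 higher (against 11.9%), with a median of -0.22. NDUFS6, a zinc-binding subunit, fell most of all subunit genes after TMM scaling. It had 414.5, 461.1 and 458.6 CPM in Control and 260.9, 274.4 and 260.7 CPM in OE. The groups were far apart relative to their spread, at 444.8 ± 26.2 and 265.4 ± 7.82 CPM (SD, n = 3), and the log2 fold change was -0.75 (SE 0.12, adjusted p = 1.76e-04, edgeR). NDUFA6, a subunit that holds an acyl carrier protein, had 196.2, 246.2 and 241.9 CPM in Control and 156.6, 175.6 and 189.0 CPM in OE, and NDUFA12 had 146.0, 143.9 and 161.3 CPM in Control and 111.1, 111.9 and 124.1 CPM in OE. Their log2 fold changes were -0.39 and -0.38, and neither overlapped between groups, though both lost the call with library totals as the scale and without several of the single libraries. NDUFAB1, the acyl carrier protein itself, was the gene nearest to the threshold among those not called, at -0.37 (adjusted p = 0.0604, edgeR).

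The membrane arm has 20 nuclear accessory genes, with a median of -0.06. Of these, 2 were lower (10%, against 13.7% of all genes tested) and 1 was higher (5%, against 11.9%). NDUFB10 and NDUFB8 belong to the far end of this arm. NDUFB10 had 286.3, 304.8 and 281.7 CPM in Control and 187.9, 194.5 and 180.5 CPM in OE, a log2 fold change of -0.63 (SE 0.12, adjusted p = 6.78e-04, edgeR). NDUFB8 had 506.5, 516.3 and 551.1 CPM in Control and 411.4, 360.9 and 380.0 CPM in OE, a log2 fold change of -0.45 (SE 0.12, adjusted p = 0.0107, edgeR). In both genes every OE library was below every Control library, and the replicates of a group were close.

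NDUFC2, a membrane arm subunit next to the mitochondrially encoded ND2, went the other way. Its values were 102.9, 112.6 and 93.7 CPM in Control and 126.3, 126.6 and 186.7 CPM in OE, and the log2 fold change was 0.52 (SE 0.15, adjusted p = 0.0201, edgeR). The highest value was that of OE replicate 3, without which the log2 fold change was 0.30 and the call was lost. The exons of NDUFC2 overlap those of THRSP on the opposite strand and of the readthrough transcript NDUFC2-KCTD14, which had 0 counts. NDUFB3 had the largest rise among the genes not called (0.40, SE 0.24), with 79.4, 46.2 and 107.0 CPM in Control and 109.6, 65.9 and 133.3 CPM in OE, so that its groups overlapped. It was called higher in 4 of the 15 alternative settings, namely with no filter beyond 1 count, with the replicate block, without Control replicate 3 and without OE replicate 2.

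Complex II has 4 nuclear genes and none that are mitochondrial. Of the 4, 0 passed the threshold (edgeR), where 25.5% of all genes tested did. SDHA, the flavoprotein, had a log2 fold change of -0.18 with a 95% interval of -0.45 to 0.10. SDHB, the iron-sulfur subunit, had 0.08, with an interval of -0.32 to 0.48. The membrane anchors SDHC and SDHD had 0.19 (-0.15 to 0.54) and 0.09 (-0.66 to 0.84). SDHD was the least precise, with 12.02, 7.133 and 21.12 CPM in Control and 15.87, 6.122 and 20.88 CPM in OE, that is 22 to 159 reads per library. With this spread between libraries, changes of the size seen in complex I were not detectable in SDHD.

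Complex III was the one complex with core genes that passed the threshold in opposite directions. CYC1 encodes cytochrome c1, the heme protein that hands electrons to cytochrome c, and UQCRFS1 encodes the Rieske iron-sulfur protein that hands electrons to cytochrome c1. CYC1 had 192.0, 217.7 and 189.7 CPM in Control and 141.6, 116.3 and 150.4 CPM in OE, a log2 fold change of -0.55 (SE 0.13, adjusted p = 0.00491, edgeR). UQCRFS1 had 87.5, 95.5 and 124.6 CPM in Control and 162.9, 147.5 and 153.0 CPM in OE, a log2 fold change of 0.58 (SE 0.14, adjusted p = 0.00502, edgeR). Neither gene overlapped between the groups, and the calls and directions held under each scaling tried. Without Control replicate 1, UQCRFS1 kept a log2 fold change of 0.47 but missed the threshold (adjusted p = 0.0562, edgeR). The other 2 core genes, UQCRC1 and UQCRC2, which encode the large matrix-facing proteins, had -0.25 and 0.21 and did not pass.

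The count of one gene divided by that of another within the same library needs no scaling between libraries. The 2 pairs below were chosen after their values were seen, so no test was run. UQCRFS1 had 0.456, 0.439 and 0.657 reads per CYC1 read in the Control libraries and 1.15, 1.27 and 1.02 in the OE libraries. NDUFC2 had 0.248, 0.244 and 0.204 reads per NDUFS6 read in Control and 0.484, 0.461 and 0.716 in OE. In both pairs all OE libraries lay above all Control libraries, so that the members of each pair changed unequally whatever the scale.

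**Figure D2:**
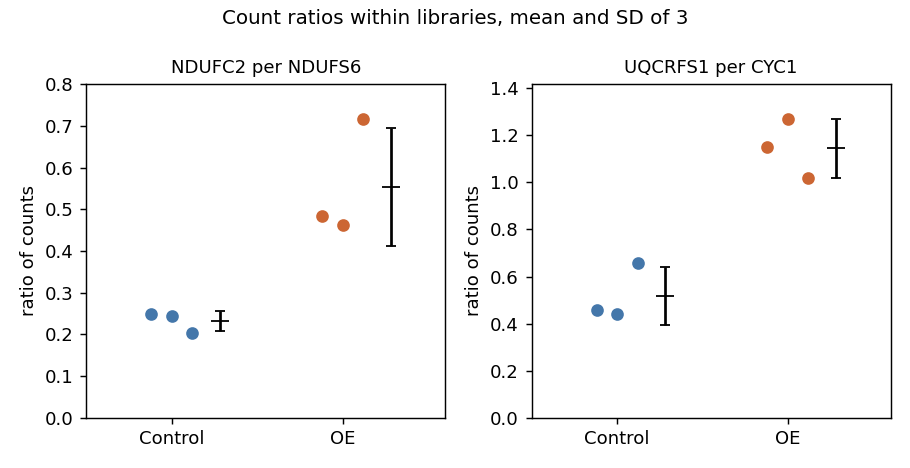
Reads of NDUFC2 per read of NDUFS6 (left) and reads of UQCRFS1 per read of CYC1 (right) in each library, with the group mean and SD beside the 3 points. The UQCRFS1 to CYC1 ratio had a mean of 0.517 ± 0.121 in Control and 1.15 ± 0.125 in OE, and the NDUFC2 to NDUFS6 ratio 0.232 ± 0.0242 and 0.554 ± 0.141.

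Of the 6 accessory genes of complex III, 1 was lower (16.7%, against 13.7% of all genes tested) and 0 were higher (against 11.9%). UQCRQ, a small subunit of the membrane part, had 1287, 1312 and 1341 CPM in Control and 1086, 993.5 and 1036 CPM in OE, with a log2 fold change of -0.34 (SE 0.12, adjusted p = 0.0475, edgeR). It was the weakest of the calls and passed the threshold in only 3 of 15 alternative settings, although the groups did not overlap. UQCRH, the hinge protein that sits beside cytochrome c1, had -0.27 and its near copy UQCRHL had 0.31, with 21 to 70 reads per library. Reads that fit both copies could have been left out or split between them, so both values are uncertain.

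In complex IV the widely expressed genes and the tissue-restricted isoforms were apart. The 11 widely expressed genes had a median log2 fold change of -0.18. Of these, 1 was lower (9.09%, against 13.7% of all genes tested) and 0 were higher (against 11.9%). With upper-quartile scaling or library totals, 0 were lower and 0 higher. With cyclic loess, 0 were lower and 1 higher, COX7C, which had a log2 fold change of 0.08 and no call after TMM scaling. COX8A, the small subunit that spans the membrane once, had 982.4, 967.6 and 921.9 CPM in Control and 739.6, 592.2 and 822.4 CPM in OE, a log2 fold change of -0.41 (SE 0.14, adjusted p = 0.0328, edgeR). The groups did not overlap, but the call was lost in 7 of 15 alternative settings. NDUFA4, once assigned to complex I and now known as a complex IV subunit, had the highest log2 fold change of the complex after TMM scaling, 0.11 (95% interval -0.21 to 0.42). COX7A2L, the supercomplex factor, had 0.03 (-0.37 to 0.42).

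The 7 isoforms known from other tissues did not pass the filter on low counts and were not tested. COX4I2 of lung, COX6A2 of heart and skeletal muscle and the testis isoforms COX7B2 and COX8C had 0 counts in all 6 libraries. A count of 0 allows up to 3 counts, which is 0.394 to 0.930 CPM depending on the library. COX6B2 of testis had 2, 1 and 2 reads in Control and 4, 0 and 1 in OE, COX7A1 of muscle 2, 0 and 1 and then 1, 1 and 2, and the hypoxia-inducible NDUFA4L2 2, 2 and 1 and then 2, 5 and 2. No switch of isoforms was detectable at this depth. Among 6 heart and skeletal muscle markers, MYH7 and ACTC1 were likewise at 0, and their sum, nearly all from myoglobin (MB), was 102.5 to 140.5 CPM in Control and 72.4 to 95.7 in OE.

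The 4 members that encode no subunit were scarce. The antisense transcript NDUFB2-AS1 was tested and had a log2 fold change of -0.34 (SE 0.36, adjusted p = 0.541, edgeR). NDUFA6-AS1 had 0, 0 and 1 reads in Control and 1, 5 and 6 in OE, and NDUFV2-AS1 had 0, 0 and 1 and then 1, 1 and 8. Whether reads were counted by strand is not given in the sources used here, and reads of an antisense transcript cannot then be told from those of its partner. Exons of 35 of the 70 subunit genes overlap those of another gene, 23 of them on the opposite strand. Among the 12 called genes this holds for 5, namely NDUFB8 with HIF1AN, NDUFC2 with THRSP, NDUFS3 with PTPMT1 and CELF1, UQCRQ with GDF9, and COX8A with an unnamed gene on its own strand.

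**Figure D3:**
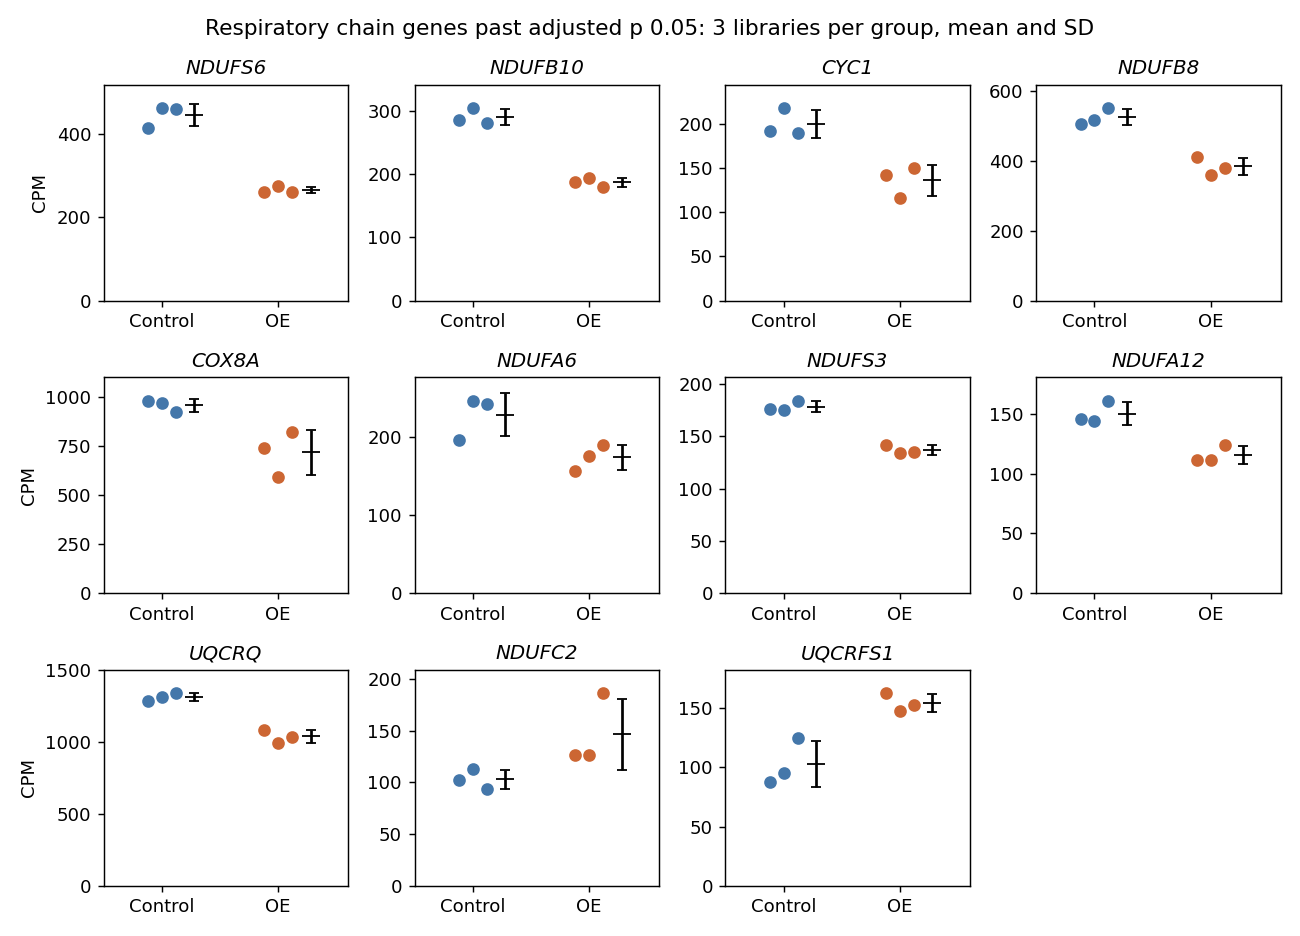
Level in CPM after TMM scaling (y axis, from 0) of the called subunit genes reported here in each of the 3 Control (blue) and 3 OE (orange) libraries, with the group mean and SD beside the points. In each panel the points of the groups do not overlap, and the last 2 panels, NDUFC2 and UQCRFS1, show the genes that were higher in OE.

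Summed over all 70 subunit genes, the level was 17696.2, 18264.8 and 19421.1 CPM in Control and 16654.9, 15237.6 and 17395.0 CPM in OE. All OE libraries lay below all Control libraries, and the ratio of the means was 0.890. As a share of all reads on genes, with no TMM scaling, the sum was 1.76% ± 0.0835 in Control and 1.71% ± 0.120 in OE (SD, n = 3), a difference smaller than either SD. In CPM after TMM scaling, the ratio of the means was 0.876 for complex I, 1.03 for complex II, 0.879 for complex III and 0.907 for complex IV. In complexes II and IV the groups overlapped. As shares of reads on genes, the means in Control and OE were 0.786% and 0.749% for complex I and 0.0243% and 0.0272% for complex II. They were 0.330% and 0.315% for complex III and 0.619% and 0.611% for complex IV.

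The members' median coefficient of variation between replicates was below that of all genes tested. It was 9.31% in Control and 10.4% in OE, where the medians of all genes tested were 12.9% and 14.3%. The members and all genes were not matched by read number, on which counting noise depends. The variation that remained followed particular libraries. OE replicate 2 held the lowest OE value in 43 of the 63 genes (68.3%), where it did so for 38.3% of all genes tested. OE replicate 3 held the highest OE value in 55.6% (38.4% of all genes tested) and Control replicate 3 the highest Control value in 52.4% (35.1%). In 14 subunit genes (22.2%, against 6.57% of all genes tested) the value was lowest in the shallowest library and highest in the deepest library of both groups. These were COX6C, COX7A2L, COX7B, NDUFA4, NDUFAB1, NDUFB3, NDUFB4, NDUFB5, NDUFB6, NDUFC1, SDHC, SDHD, UQCR10 and UQCRH. Of the 14, 0 passed the threshold (edgeR), where 25.5% of all genes tested did. They were picked by the order of their values within groups, and such spread itself makes a call less likely. COX6C, NDUFAB1 and NDUFB3 were called in some alternative settings. OE replicate 2 also had the largest share of reads on no gene, 39.5%. Replicate number and order of depth coincide in both groups, so that depth and a batch shared by replicates of the same number cannot be told apart. The part of depth, of such a batch and of the share of reads on no gene in the members' values was not tested.

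The other genes of the pathway were taken from lists compiled by textbook role. ATP synthase, or complex V, uses the proton gradient, and 5 of its 18 genes were lower (27.8%, against 13.7% of all genes tested) and 0 higher, with a median of -0.19. With cyclic loess, 1 was lower and 1 higher. The smallest adjusted p were those of ATP5L (-0.61), ATP5O (-0.51) and C14orf2 (-0.48), which encode subunits of its stalk and membrane parts, and the calls of ATP5L and C14orf2 were lost with cyclic loess. The tricarboxylic acid cycle feeds NADH and succinate into the chain. Its list of 19 genes also holds genes of pyruvate dehydrogenase and pyruvate carboxylase, which are not enzymes of the cycle itself. Lower were 3 of the 19 (15.8%, against 13.7% of all genes tested), IDH3B at -0.65, SUCLG1 at -0.47 and IDH3A at -0.35. Higher was 1 (5.26%, against 11.9%), SUCLG2 at 0.44. SUCLG1 encodes the shared subunit and SUCLG2 the GDP-specific subunit of succinyl-CoA ligase.

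The assembly factors of complexes I to IV had larger single changes than the subunits. Of 53 listed factors, 52 were tested, with a median of -0.12. Of these, 9 were lower (17.3%, against 13.7% of all genes tested) and 1 was higher (1.92%, against 11.9%). A change of at least 2-fold, called or not, was seen in 5.77% of them, against 8.06% of all genes tested. FOXRED1, which is needed to build complex I, had 111.8, 101.4 and 87.8 CPM in Control and 44.6, 40.4 and 42.0 CPM in OE, a log2 fold change of -1.24 (SE 0.14, adjusted p = 4.10e-06, edgeR). COX20, a chaperone of the mitochondrially encoded COX2, had 347.1, 376.5 and 359.6 CPM in Control and 162.2, 194.5 and 168.0 CPM in OE, a log2 fold change of -1.05 (SE 0.12, adjusted p = 7.87e-06, edgeR). CMC2, which acts in the biogenesis of complex IV, was lower at -0.84. TMEM126B, which is part of the complex that assembles the membrane arm of complex I, rose from 70.3, 82.8 and 91.1 CPM to 164.0, 193.7 and 143.4 CPM, a log2 fold change of 1.03 (SE 0.14, adjusted p = 4.32e-05, edgeR). These 4 genes did not overlap between the groups and were called in 15 of 15 alternative settings.

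Ubiquinone and cytochrome c are the mobile carriers between the complexes, and 15 genes for them were listed. Of these, 2 were lower (13.3%, against 13.7% of all genes tested) and 0 higher (against 11.9%). The 2 lower genes were PDSS1 (-1.10) and COQ2 (-0.59), which make and attach the side chain of ubiquinone. CYCS, which encodes cytochrome c, had -0.01 (95% interval -0.33 to 0.31), and its sign depended on the scaling. Of 21 regulators of mitochondrial biogenesis, 19 were tested, with a median of -0.20. Lower were 4 of these (21.1%, against 13.7% of all genes tested) and higher 0 (against 11.9%). ESRRG, an orphan nuclear receptor, had 9.14, 8.99 and 10.8 CPM in Control and 2.39, 2.50 and 1.31 CPM in OE, a log2 fold change of -2.30 (SE 0.34, adjusted p = 7.85e-05, edgeR), from 9 to 62 reads per library. SLIRP, which stabilises mitochondrial mRNA, was lower at -0.57, TFAM, which packages and transcribes mitochondrial DNA, at -0.53, and PPRC1, a co-activator, at -0.70. NRF1 had -0.05 and ESRRA -0.16, neither of which kept its sign in every setting, and PPARGC1A had 1 to 5 reads per library and was not tested. With library totals as the scale, the genes lower and higher were 3 and 1 for complex V, 7 and 3 for the assembly factors, 1 and 1 for the carriers, 4 and 0 for the regulators and 1 and 2 for the tricarboxylic acid cycle. With cyclic loess they were 6 and 3 for the assembly factors, 3 and 0 for the carriers, 4 and 0 for the regulators and 1 and 2 for the cycle.

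**Figure D4:**
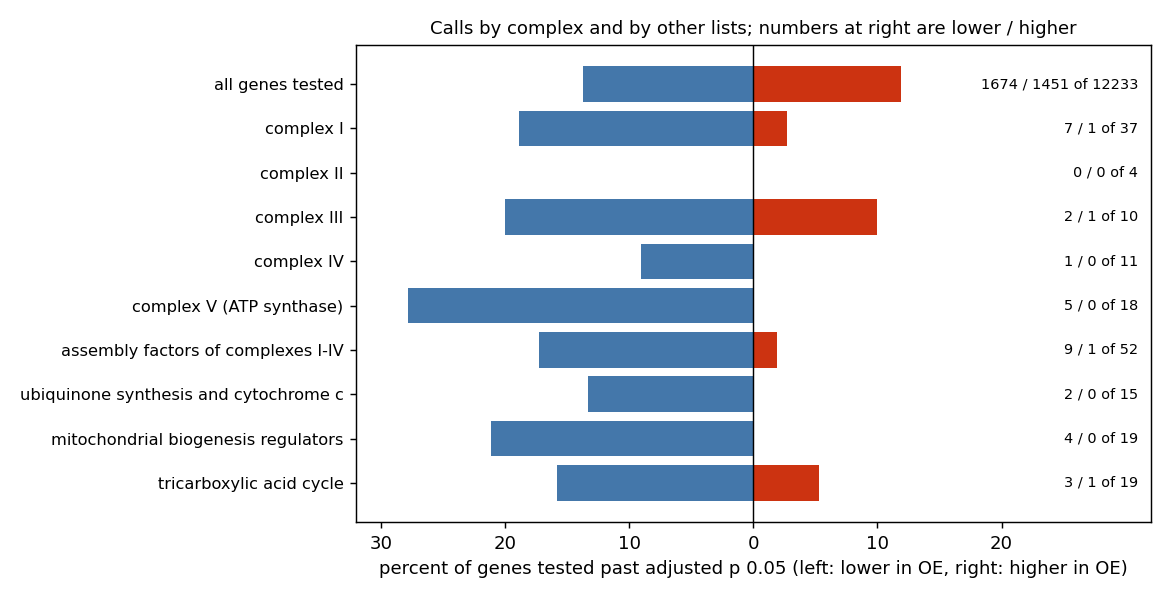
Percent of the genes tested that were lower (bars to the left) and higher (bars to the right) in OE at an adjusted p under 0.05, for all genes, for complexes I to IV and for the 5 other lists, with TMM scaling. Beside the bars stand the numbers lower, higher and tested, such as 7, 1 and 37 for complex I and 5, 0 and 18 for complex V.

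Under the 15 alternative settings, 3 of the 10 falls, NDUFS6, NDUFB10 and CYC1, were called each time. NDUFB8 and UQCRFS1 were called in 14 and NDUFC2 in 12. Called in 10 or fewer were NDUFS3 (10), NDUFA6 (9), NDUFA12 (8), COX8A (8) and UQCRQ (3).

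**Figure D5:**
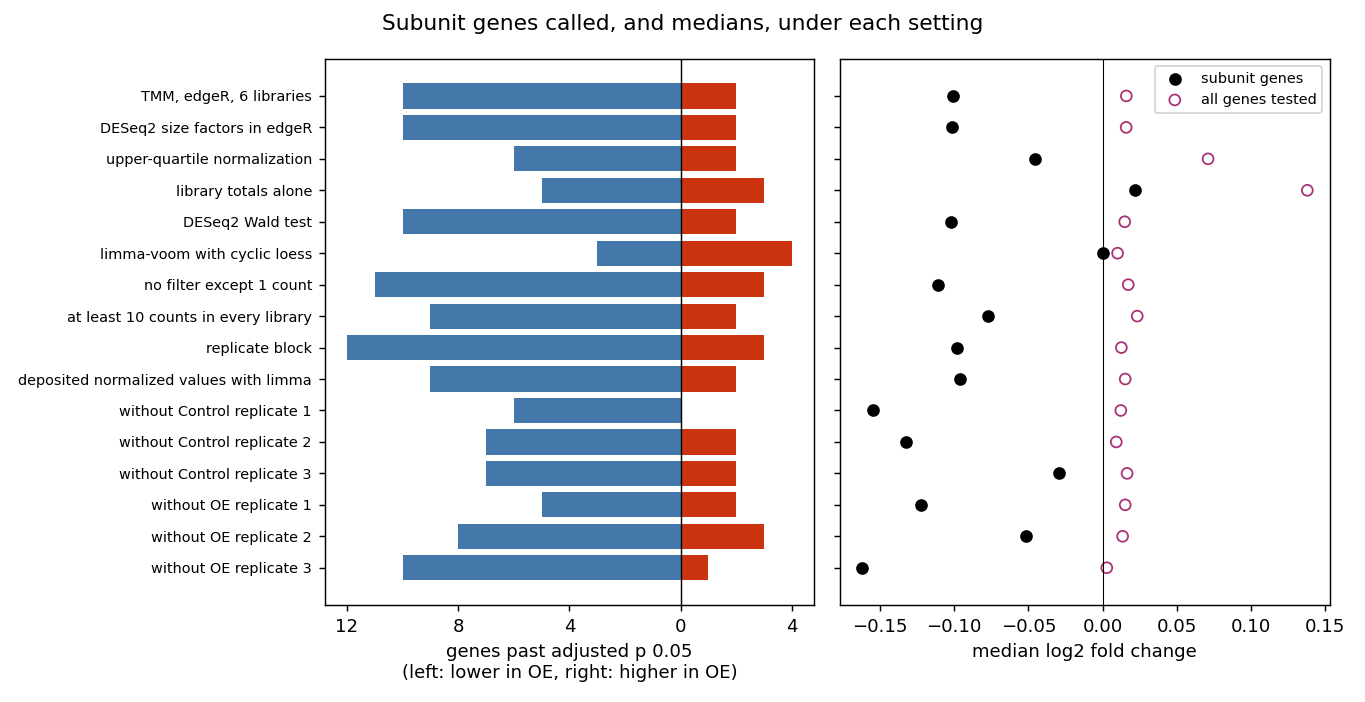
Left, number of subunit genes called lower (bars to the left) and higher (bars to the right) in OE under each setting. Right, median log2 fold change of the subunit genes (filled) and of all genes tested (open); the number lower ranged from 3 to 12, and the members' median lay below that of all genes under each setting shown, with a difference of -0.00966 for cyclic loess.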

How the data were processed

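RNA of 22Rv1-ABHD5 cells was sequenced as 3′ mRNA libraries, 3 without Dox (Control) and 3 with Dox (OE). The authors demultiplexed 100 bp single-end reads with CASAVA 1.8.2, checked them with FastQC, mapped them to hg38 with STAR, and deposited raw read counts per gene symbol. The submitters' processing notes also name HTSeq and edgeR. The annotation and the strand setting are not given in the sources used here. The kit is REV in the study's methods but FWD in the labels. The files of the single libraries hold normalized signal values that the authors deposited, scaled by a method that is not given in the sources used here, and these served as an alternative. Reads assigned to no gene stayed out of library sizes and tests. They made up 32.5% to 39.5% (outside any gene) and 3.05% to 3.37% (ambiguous) of the reads listed.

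Counts were tested with edgeR 4.0.16 in R 4.3.3 (TMM, filterByExpr with a minimum count of 10, quasi-likelihood test). Adjusted p are Benjamini-Hochberg values over all 12233 genes tested, and the threshold was 0.05. Standard errors were derived from the quasi-likelihood F statistic. The labels do not say that replicates came from separate cultures, so p-values measure only the spread between these libraries. The steps were tested on simulated counts in which few genes changed, each by more than any member did. How well changes as small as those of the members are called was not tested. Alternatives were DESeq2 1.42.0, limma 3.58.1 (voom with cyclic loess, and log2 of the normalized values with a pseudocount of 1), other scalings and filters, leaving out libraries singly, and a replicate block. The 95% intervals come from the fitted standard errors and include the spread between libraries. The limit of 3 counts covers counting error only, since no molecular identifiers were used. Coordinates of promoters are RefSeq's on GRCh38.p14, and exon overlaps are from GENCODE on hg38.

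The members, the roles, the 5 gene lists and the markers were chosen with earlier results of these data known. The genes named are the members past the threshold, the lowest and highest of each complex, the core genes, complex II, COX7A2L, NDUFA4, the restricted isoforms, the members not tested, ABHD5, the 3 smallest adjusted p per direction of each list, and PPARGC1A, ESRRA, NRF1, TFAM and CYCS. COX7C, NDUFAB1, NDUFB3, UQCRH, UQCRHL, PPRC1 and the 14 genes whose values followed the order of depth were named after their values were seen. Proteins of the isoforms and the other assays of the study were not analysed here. A member and some markers are not reported here by name.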

Additional observations from a re-analysis of the deposited data

How the results depend on the processing

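The number of called subunit genes depended on the scaling and on single libraries. The 10 genes lower in OE became 6 with upper-quartile scaling, 5 with library totals alone and 3 with limma-voom after cyclic loess, and the 2 higher became 4 with the last. Of all 12233 genes tested, 1674 were lower and 1451 higher with TMM scaling. In the same order, the 3 alternatives gave 1394 and 1748, 1136 and 2179, and 1543 and 1456. The members' median of -0.10 became 0.0216 with library totals alone, where the median of all genes moved from 0.02 to 0.14, so that relative to all genes it stayed at -0.12. Over all settings this offset ranged from -0.167 without Control replicate 1 to -0.00966 with cyclic loess. With each library left out in turn, 5 to 10 genes were lower and 0 to 3 higher, and the median lay between -0.16 and -0.03. Among all genes tested, 1228 to 1653 were then lower and 953 to 1459 higher. The lowest numbers were 5 lower without OE replicate 1 and 6 without Control replicate 1, and 0 higher without Control replicate 1 and 1 without OE replicate 3. The cause was not tested. ABHD5 kept its direction and its call in 15 of 15, between 0.81 and 1.06.

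Same-numbered libraries of Control and OE deviated together with correlations of -0.0106, 0.245 and 0.0856 over genes. Differently numbered ones had -0.178 to 0.118, so that the value of replicate 2 was the highest. The main test did not use the numbers as pairs, and whether they mark a shared batch was not tested. With the number as a replicate block, 12 members were lower and 3 higher, where 1887 and 1650 of all 12233 genes tested were. The median was -0.10, all 12 calls were kept, and CYCS was at 0.00370.

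Signs turned only in genes that were not called. Upper-quartile scaling gave NDUFV2 0.0303, NRF1 0.00268 and CYCS 0.0437. Library totals gave NDUFV2 0.0973, NRF1 0.0700 and CYCS 0.111. Cyclic loess gave SDHD -0.00189, NDUFV2 0.0671 and CYCS 0.26, the deposited normalized values gave ESRRA 0.13 and CYCS 0.00571, and 10 counts in every library gave CYCS 0.0137. With single libraries left out the ranges were -0.15 to 0.19 for COX7A2L, -0.0737 to 0.211 for NDUFA4, -0.16 to 0.28 for SDHB, -0.31 to 0.61 for SDHD, -0.103 to 0.0301 for NDUFV2, -0.56 to 0.45 for ESRRA, -0.229 to 0.0735 for NRF1 and -0.14 to 0.16 for CYCS.

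With 3 libraries per group the standard error of a log2 fold change was 0.116 to 0.357 among the members. It was largest in SDHD and UQCRHL, which have few reads, and in NDUFB3, which varied between libraries, so small changes in these genes were not detectable. The 3′ counts do not measure mitochondrially encoded subunits, protein or respiration.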
